A study of Mus musculus with 8 samples.

Results

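Dorsal skin of mice treated with either of 2 triterpene compounds was compared with skin treated with minoxidil. The arrays titled Tieghemelin 1 and 2 and Maslinic acid 1 and 2 formed a pooled group of 4, the arrays titled Minoxidil 1 and 2 formed the other group, and these were 6 of the 8 arrays of the series. The other 2 arrays were of water-treated skin, entered no test here, and are given only as reference values. The mice were C3H males, 7 weeks old, which were kept for 7 days to acclimatise and assigned at random to groups of 8. Their backs were trimmed and then depilated with a cream before each compound was put on the skin every day for 20 days. The stated dose was 1% for tieghemelin, maslinic acid and minoxidil alike, but the source name of Minoxidil 2 gives 2%, so the minoxidil dose of that array is uncertain. The labels do not say whether an array held RNA of 1 mouse or of several, and nothing ties an array to a mouse, so p-values measure only the spread between these arrays. Each group was taken at a single time after depilation, from whole skin, in which fewer cells of a type and less RNA per cell cannot be told apart.

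Hair follicles pass through growth, regression and rest, and depilation of resting follicles starts a new growth phase. During growth the follicle builds a keratin hair shaft inside a rigid sleeve, the inner root sheath, while signals from the dermal papilla at its base govern the cells above. Minoxidil is a topical hair growth drug which sulfotransferases turn into an opener of ATP-sensitive potassium channels. Maslinic acid is a pentacyclic triterpene acid known from olives, and tieghemelin is a triterpene saponin, so the comparison asks where skin under these plant compounds differed from skin under an established drug.

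The values were log2 signals of 22206 probe sets, of which 19572 carried a gene symbol, and the number of arrays limited the precision. Correlation over probe sets was 0.960 between the tieghemelin arrays, 0.951 between the maslinic acid arrays and 0.949 to 0.966 between arrays of different triterpenes. It was 0.932 between the minoxidil arrays and 0.910 to 0.940 between a minoxidil and a triterpene array. Background was read from 23 antigenomic probe sets, designed against sequence absent from the mouse, and their median was 7.51 and 7.33 with minoxidil and lay between 6.97 and 7.08 on the triterpene arrays. Background therefore moved with the comparison, and its part in the results was not tested. A gene above this median on no array of a group has only a bound there and is given as at least a stated fold, with the dim arrays set to no less than their background. Keratins of basal and upper epidermis (Krt5, Krt14, Krt1, Krt10), dermal collagens (Col1a1, Col3a1), hair shaft keratins (Krt31, Krt86) and the inner root sheath keratin Krt71 were above it on all 6 arrays, whereas loricrin (Lor), the main cornified envelope protein, and the hair keratin Krt33a were above it on none. Albumin (Alb) and insulin (Ins2), which skin does not make, also lay above it on all 6, so it is no detection call for a single gene.

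After treatment with the triterpenes, 52 probe sets were higher and 26 were lower than with minoxidil at an adjusted p under 0.05 (limma, 4 against 2 arrays), which is 0.234% and 0.117% of all tested. All 78 showed no overlap between the groups, all passed the thresholds the study set (1.7-fold and p up to 0.05 before adjustment), and their differences ranged from 1.24 to 2.49 log2 units in size. Of these 78, 58 carried a gene symbol and 20 (25.6%) did not, against 11.9% without a symbol among all probe sets. Much larger numbers met the looser criteria. At the study's thresholds 1071 probe sets were higher (4.82%) and 1203 lower (5.42%), or 10.2% in all, and all 4 triterpene arrays lay above both minoxidil arrays for 2805 probe sets (12.6%) and below both for 3387 (15.3%). The median difference over all probe sets was -0.03. The count of 78 rested on each triterpene array. With limma it was 1 without Tieghemelin 1, 0 without Tieghemelin 2, 10 without Maslinic acid 1 and 0 without Maslinic acid 2. In a model that kept the 2 compounds apart it was 4, and with array weights it was 0. The counts of 0 without Tieghemelin 2 and without Maslinic acid 2 stood beside 3534 and 3306 probe sets at an unadjusted p under 0.05. That with array weights stood beside 3080. Leaving out a minoxidil array left 1 in that group. The calls of those fits are therefore not interpreted, and they enter only the range given below over all fits that left out 1 array. Since none of the 78 overlapped between the groups, their direction could not change in any of these fits, and its constancy is no support for them. The split between higher and lower depended on scaling: it was 41 and 9 with quantile normalization, and 2177 and 53 when each array was centred on the median of its background probe sets, where the study's thresholds gave 4373 and 171 and the probe sets without overlap were 8190 (36.9%) and 686 (3.09%). That centring moved all probe sets by the same amount, their median from -0.03 to 0.39, so list directions are given relative to all probe sets and it is no test of them. For a single gene, 4 arrays against 2 allow only 15 arrangements, so an exact permutation p that doubles the 1-sided value cannot fall below 0.13.

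The gene with the largest rise among those named was trichohyalin (Tchh), a structural protein that hardens the inner root sheath and the medulla of the hair. Its log2 signal was 10.09 and 10.39 on the tieghemelin arrays, 10.44 and 10.27 on the maslinic acid arrays and 8.59 and 7.42 on the minoxidil arrays. The 4 triterpene arrays lay close together and far above both minoxidil arrays, a difference of 2.29 ± 0.31 (SE) or 4.89-fold (adjusted p = 0.0234), and the water arrays lay between them at 9.23 and 9.24. Prxl2b, which encodes a prostamide and prostaglandin F synthase, read 9.57 and 9.28 with tieghemelin, 9.12 and 9.04 with maslinic acid and 7.28 and 7.02 with minoxidil. Both minoxidil values were below the background of their arrays and all 4 triterpene values were well above theirs, so Prxl2b was at least 3.55-fold higher (adjusted p = 0.0173). The forkhead transcription factor gene Foxr2 gave 12.04 and 11.58 with tieghemelin, 11.57 and 11.45 with maslinic acid and 9.60 and 9.56 with minoxidil. Its minoxidil arrays nearly coincided and all triterpene arrays stood above them, by 2.08 ± 0.25 or 4.24-fold (adjusted p = 0.0173), while the water arrays were near minoxidil at 9.99 and 9.84.

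Genes of protein turnover, chromatin and mitochondria were also among the 15 largest named rises. Psma6, a subunit of the proteasome core, read 9.14 to 9.71 on the triterpene arrays against 7.19 and 8.06 with minoxidil (1.84 ± 0.29, adjusted p = 0.0377). Dpy30, a shared subunit of histone H3 lysine methyltransferase complexes, read 8.85 to 10.08 against 7.73 and 7.23 (1.91 ± 0.33, adjusted p = 0.0437). For both genes the water arrays, at 9.48 and 9.74 and 9.38 and 8.58, lay within or near the triterpene range and the minoxidil arrays were the low ones. Micos13, a component of the complex that shapes the inner mitochondrial membrane, lay at 9.90 to 10.25 against 8.30 and 8.31 (1.75 ± 0.23), and the methyltransferase gene Mettl9 at 10.30 to 10.60 against 8.74 and 8.78 (1.72 ± 0.23). In each case the minoxidil arrays differed from each other far less than from the triterpene arrays. Ly6g6d, which encodes a membrane-anchored protein of the Ly6 family, was bright on all arrays at 11.94 to 12.52 against 10.29 and 10.51 (1.76 ± 0.25).

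Further rises were in genes of membranes, the cell surface and the nucleus. They were Lrig2, a leucine-rich repeat membrane protein (1.76 ± 0.26), Hs6st3, a heparan sulfate sulfotransferase (1.75 ± 0.26), the cyclin-like gene Cntd1 (1.75 ± 0.31) and the zinc finger gene Zfp326 (1.70 ± 0.28). Minoxidil arrays were at or below background for the amino acid transporter gene Slc36a4 (at least 1.51-fold higher), for Ankar (at least 1.47-fold) and for Zfp821 (at least 1.05-fold), whose bounds were much smaller than those of Prxl2b. The adjusted p of these 15 rises lay between 0.0173 and 0.0445.

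**Figure D1:**
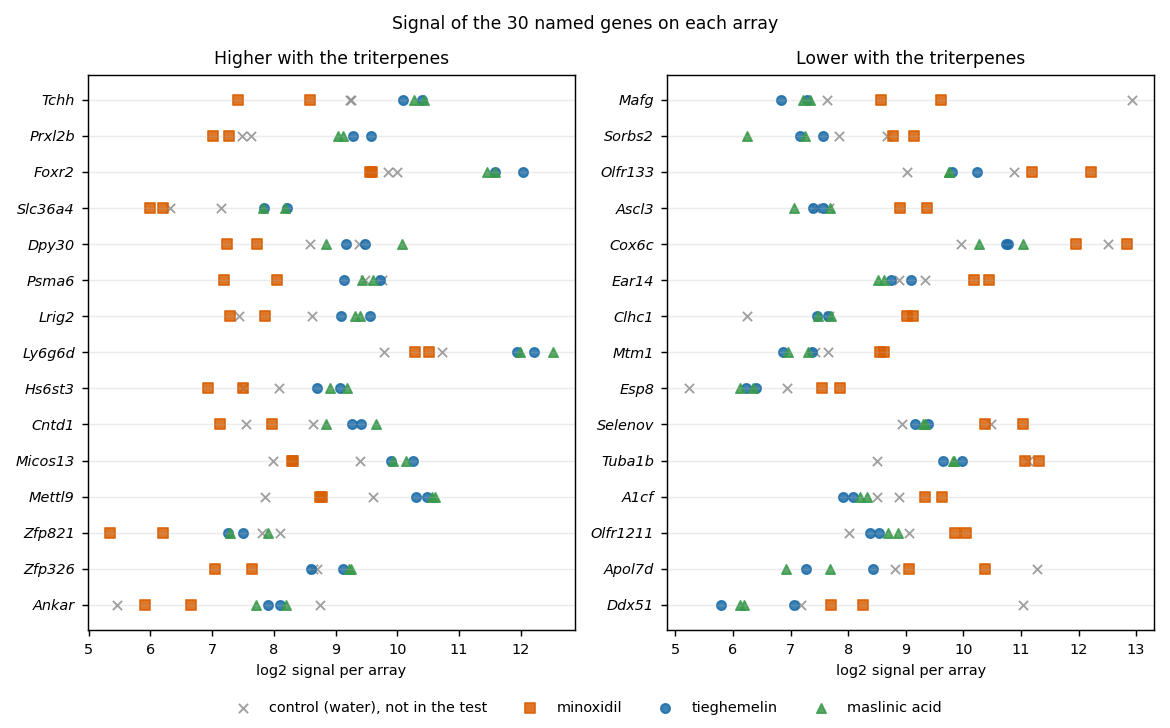
Log2 signal of the 30 named genes on each array, with 15 that were higher (left) and 15 that were lower (right) after triterpene treatment. Points are single arrays: squares, minoxidil; circles, tieghemelin; triangles, maslinic acid; grey crosses, water-treated skin, which was in no test. In each row the 4 triterpene points lie on one side of both squares, as the choice of genes requires.

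The named falls included Cox6c, a nuclear-encoded subunit of cytochrome c oxidase. It read 10.77 and 10.74 with tieghemelin, 11.03 and 10.28 with maslinic acid and 12.85 and 11.95 with minoxidil. All triterpene arrays lay below both minoxidil arrays, a difference of -1.69 ± 0.31 or 3.23-fold lower (adjusted p = 0.0475), and the water arrays were split, at 9.96 and 12.51. Mafg encodes a small Maf protein that pairs with NRF2 on stress response genes. Its values were 6.83 and 7.28, 7.33 and 7.22 and 9.61 and 8.57 with tieghemelin, maslinic acid and minoxidil in turn. Again no array overlapped (-1.93 ± 0.31, adjusted p = 0.0377), though the minoxidil arrays differed widely from each other and the water arrays, at 12.93 and 7.63, spanned far more than the difference.

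Sorbs2, an adaptor of the actin cytoskeleton that is abundant in striated muscle, lay at 6.24 to 7.56 on the triterpene arrays against 8.78 and 9.15 with minoxidil (-1.91 ± 0.34, adjusted p = 0.0459). Tuba1b, an alpha-tubulin gene with near-identical paralogs that probes may not separate, lay at 9.65 to 9.97 against 11.31 and 11.07 (-1.36 ± 0.23, adjusted p = 0.0406). Mtm1, the phosphoinositide phosphatase myotubularin, differed by -1.46 ± 0.25, and Ascl3, a basic helix-loop-helix factor of ductal progenitors, by -1.71 ± 0.27. The rest were Ear14, a ribonuclease of a multigene family found in eosinophils (-1.57 ± 0.25), Clhc1 (-1.50 ± 0.23), the selenoprotein gene Selenov (-1.40 ± 0.26), the RNA-editing cofactor gene A1cf (-1.35 ± 0.24), the odorant receptor genes Olfr133 (-1.81 ± 0.31) and Olfr1211 (-1.33 ± 0.24), and Esp8, a secreted peptide gene at least 1.62-fold lower. Several of these belong to large families or are mainly known from other tissues, and their signal in skin was not checked by another method. Only 13 falls met every part of the naming rule, so Apol7d (-2.14 ± 0.44, adjusted p = 0.0549) and Ddx51, an RNA helicase of ribosome assembly (-1.68 ± 0.34, adjusted p = 0.0547), were taken from the study's thresholds.

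The compounds were then set against each other. For the 30 named genes the difference between tieghemelin and maslinic acid ranged from -0.37 to 0.62, and all 30 of its 95% intervals included 0, with bounds reaching from -1.09 to 1.66. The choice of genes favoured small differences here, because a difference between the compounds counts as spread in the pooled fit. These arrays therefore do not show that the compounds act alike on these genes. Over all probe sets, the compounds gave 0 at an adjusted p under 0.05 with limma and 507 at an unadjusted p under 0.05, and 152 probe sets (0.684%) were higher and 195 (0.878%) lower with tieghemelin at the study's thresholds. Taken alone against minoxidil, tieghemelin gave 0 adjusted calls with limma and 2845 at an unadjusted p under 0.05, and maslinic acid gave 0 and 3024. At the study's thresholds 1100 probe sets (4.95%) were higher and 1214 (5.47%) lower with tieghemelin, and 1178 (5.30%) were higher and 1285 (5.79%) lower with maslinic acid. These single-compound comparisons share the minoxidil arrays, and each has only 2 arrays on either side. Of the 2274 probe sets at the study's thresholds in the pooled comparison, 36 also met them between the compounds. The pooled fit tends to keep that number low, for the same reason.

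A few inner root sheath genes were higher after triterpene treatment. The list held 13 measured genes, of which 3 lay above both minoxidil arrays on all 4 triterpene arrays (23.1%, against 12.6% of all probe sets) and 0 lay below, with a median difference of 0.23 (0.09 without Maslinic acid 1) against -0.03 over all probe sets. Besides Tchh these were Krt27 and Krt28, type I keratins of the inner root sheath. Their upstream sequences are shown because these 3 genes stood together on one side, and each is the 250 bases before the RefSeq gene start (GRCm38.p6), 5′ to 3′ on the coding strand. Capitals mark TATAAA, the TATA box core, and CTTTGA, the core bound by LEF and TCF factors, on either strand.
Tchh: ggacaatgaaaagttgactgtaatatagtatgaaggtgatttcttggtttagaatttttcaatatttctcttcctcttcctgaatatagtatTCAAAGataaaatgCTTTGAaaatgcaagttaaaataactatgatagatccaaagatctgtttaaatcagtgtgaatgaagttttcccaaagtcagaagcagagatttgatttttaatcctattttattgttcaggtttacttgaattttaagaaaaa
Krt27: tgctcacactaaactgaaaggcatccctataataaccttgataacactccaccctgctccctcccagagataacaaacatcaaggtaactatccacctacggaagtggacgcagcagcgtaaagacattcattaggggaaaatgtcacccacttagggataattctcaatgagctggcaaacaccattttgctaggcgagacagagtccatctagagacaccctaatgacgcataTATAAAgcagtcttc
Krt28: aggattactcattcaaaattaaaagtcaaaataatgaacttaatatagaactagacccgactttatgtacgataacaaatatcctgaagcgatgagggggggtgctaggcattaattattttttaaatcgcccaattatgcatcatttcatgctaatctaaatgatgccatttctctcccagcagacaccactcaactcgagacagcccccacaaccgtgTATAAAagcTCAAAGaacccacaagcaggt
The Tchh stretch lies at chr3:93442080-93442329 on the plus strand, that of Krt27 at chr11:99351119-99351368 and that of Krt28 at chr11:99374904-99375153, both on the minus strand. TATAAA starts 15 bases before the gene start in Krt27 and 30 in Krt28 and is not in the Tchh window, where 2 matches to CTTTGA lie. Krt28 holds 1 CTTTGA match and Krt27 holds 0. Of 32851 RefSeq promoters cut to the same length, 12.4% hold TATAAA and 13.8% hold CTTTGA on either strand, and a match is no evidence that a factor binds there.

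Krt27 read 9.32 and 9.08 with tieghemelin, 8.71 and 9.28 with maslinic acid and 7.73 and 8.34 with minoxidil. The difference was 1.06 ± 0.28 without overlap (adjusted p = 0.0880), which is above the adjusted threshold, and the water arrays, at 11.45 and 8.87, were within or above the triterpene range. Krt28 read 8.30 and 8.18, 8.31 and 8.32 and 7.30 and 7.18 in the same order. Its triterpene values nearly coincided and its minoxidil values were below background, so Krt28 was at least 1.81-fold higher (adjusted p = 0.0616), with water arrays again higher at 9.21 and 9.35. Krt71, another keratin of this sheath, did not separate the groups, with 8.89 to 11.01 on triterpene arrays and 10.33 and 9.21 on minoxidil arrays.

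Hair shaft genes were mixed. Of 21 measured shaft keratins and shaft proteins, 5 lay wholly above minoxidil (23.8%, against 12.6% of all probe sets) and 3 wholly below (14.3%, against 15.3%). The type I hair keratin Krt40 read 8.85 and 9.31 with tieghemelin, 9.71 and 9.91 with maslinic acid and 8.59 and 8.47 with minoxidil, and all 4 triterpene arrays were above the 2 minoxidil arrays (0.91 ± 0.30, adjusted p = 0.152). Krt31 (0.75 ± 0.25) and Krt86 (0.51 ± 0.27) also lay wholly above. The median of the shaft list was 0.14, and it was -0.06 without Minoxidil 2. At the study's thresholds 1 shaft gene was higher and 0 lower (4.76% and 0.0%, against 4.82% and 5.42% of all probe sets). Genes for keratin-associated proteins, the matrix between hair keratin filaments, leaned lower in the count without overlap. Of 50, 12 lay wholly below (24.0%, against 15.3% of all probe sets) and 5 wholly above, a share under the 12.6% of all probe sets. At the study's thresholds 3 were lower and 2 higher, shares near the 5.42% and 4.82% of all probe sets. The median was -0.13, and it was -0.24 without Minoxidil 2. With quantile normalization it was -0.05, and 11 lay wholly below. Members of the same subfamily went opposite ways, since Krtap6-1 lay at 11.92 to 12.38 against 11.45 and 10.94 (0.98 ± 0.26) while Krtap6-5 lay at 14.05 to 14.50 against 15.30 and 14.99 (-0.84 ± 0.24). Krtap31-2 was also on the lower side (-0.82 ± 0.27). None passed the adjusted threshold, and these short, near-identical genes may share probes.

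Genes that run the hair cycle gave isolated differences. Of 58 measured WNT, BMP, FGF and hedgehog pathway genes, 4 lay wholly above and 5 wholly below (6.90% and 8.62%, against 12.6% and 15.3% of all probe sets), and the median was 0.06. Without Minoxidil 1 these were 20 above and 18 below (34.5% and 31.0%, against 24.4% and 28.9% of all probe sets), so the low shares rested on that array. Fgf22, a keratinocyte-acting growth factor, was wholly above, at 9.71 to 10.19 on the triterpene arrays (0.95 ± 0.24, adjusted p = 0.0809). Sfrp2, a secreted WNT modulator, was on the same side (0.75 ± 0.26), and Id2, a BMP target, on the other (-0.50 ± 0.24). Dermal papilla markers had 0 members wholly above and 4 of 19 wholly below (21.1%, against 15.3% of all probe sets). These were the R-spondins Rspo3 (-0.83 ± 0.26) and Rspo4 (-0.54 ± 0.25), which amplify WNT signalling, the transcription factor gene Sox2 (-0.59 ± 0.25), and Lef1, a WNT effector at least 1.35-fold lower. Of 20 bulge and hair germ stem cell markers, 3 lay wholly below and 2 wholly above, shares no higher than the 15.3% and 12.6% of all probe sets. Those below were Tcf7l1 (-0.54 ± 0.25), Tcf7l2 (-0.83 ± 0.26) and Runx1 (-0.59 ± 0.24). Among those above, Npnt, a basement membrane protein at the bulge, was at least 1.31-fold higher (adjusted p = 0.0521). None of the members named here passed an adjusted p of 0.05.

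Of 17 measured genes for the channel that minoxidil opens, its activation and prostaglandin signalling, 0 lay wholly above and 2 wholly below (11.8%). Of all probe sets 12.6% lay wholly above and 15.3% wholly below. None of the 17 met the study's thresholds, against 4.82% higher and 5.42% lower of all. The channel pore gene Kcnj8 read 9.03 and 8.64 with tieghemelin, 8.84 and 8.58 with maslinic acid and 8.53 and 9.27 with minoxidil, a difference of -0.13 ± 0.27 with overlapping arrays. Its regulatory partner Abcc9 differed by 0.02 ± 0.23, the sulfotransferase gene Sult1a1 by -0.37 ± 0.31 and the cyclooxygenase gene Ptgs2 by -0.01 ± 0.25, all with overlap. Vegfa, a vascular growth factor, read 11.25 and 11.23, 11.35 and 11.06 and 10.05 and 11.16, so that Minoxidil 1 alone was low (0.62 ± 0.30). The prostaglandin E2 receptors Ptger4 (-0.74 ± 0.27, adjusted p = 0.179) and Ptger2 (-0.56 ± 0.24, adjusted p = 0.249) were the 2 without overlap.

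**Figure D2:**
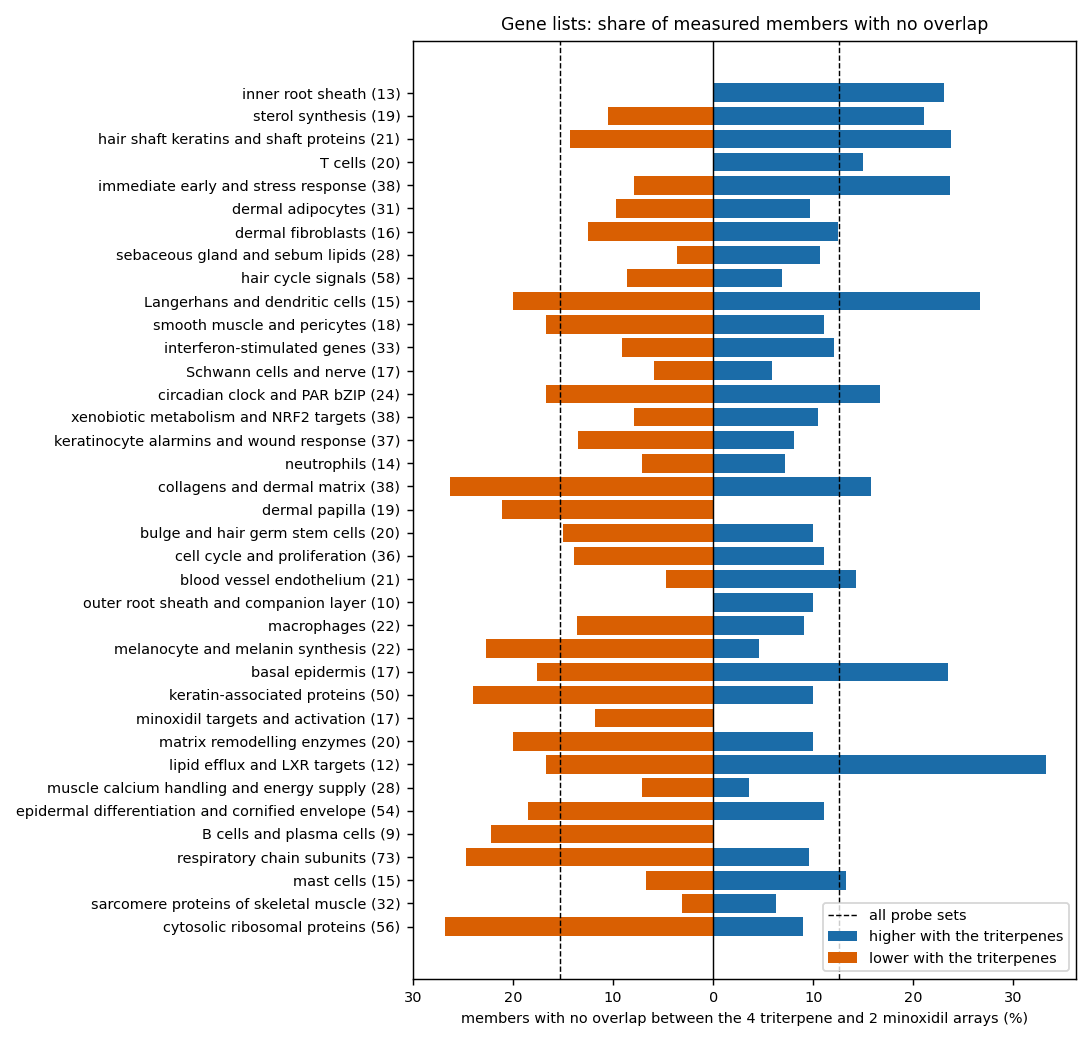
Share of measured members of each gene list, in percent, for which all 4 triterpene arrays lay above (blue, right) or below (orange, left) both minoxidil arrays. The number of measured members is in brackets, dashed lines mark the 12.6% and 15.3% of all probe sets, lists with under 5 measured members are left out, and lists are ordered by median difference, with the highest on top.

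Genes of the cytosolic ribosome and the respiratory chain lay lower, relative to all probe sets, after triterpene treatment. Ribosomal proteins had, with all arrays, the lowest median of the lists drawn, -0.46 over 56 measured genes against -0.03 over all probe sets, and 15 members lay wholly below minoxidil (26.8%, against 15.3%) with 5 wholly above. At the study's thresholds 12 were lower and 3 higher (21.4% and 5.36%, against 5.42% and 4.82% of all probe sets), and 0 passed the adjusted p with limma. With quantile normalization the median was -0.29 and 7 were lower at those thresholds. Without Minoxidil 1 the median was -0.21 and 7 were lower at the study's thresholds, and without Tieghemelin 1 the median was -0.30. Rpl29 read 15.10 and 15.84 with tieghemelin, 15.56 and 14.91 with maslinic acid and 16.30 and 16.55 with minoxidil. Its signal was high throughout and lowest on Tieghemelin 1 and Maslinic acid 2 (-1.08 ± 0.29, adjusted p = 0.0967). Rpl8 (-1.24 ± 0.35) and Rpl11 (-1.11 ± 0.36) lay on the same side. Rpl22 went the opposite way, at 12.21 to 12.77 against 10.88 and 11.61 (1.26 ± 0.28, adjusted p = 0.0637). The mean level of the list overlapped between groups, with 10.18 and 10.65 for tieghemelin, 10.89 and 10.29 for maslinic acid, and 10.95 and 10.70 for minoxidil. Many ribosomal protein genes have processed pseudogenes that their probes may also match.

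Respiratory chain subunits had 18 of 73 wholly below (24.7%, against 15.3% of all probe sets) and 7 wholly above (9.59%, against 12.6%), with a median of -0.19. At the study's thresholds 12 were lower against 5 higher (16.4% and 6.85%, against 5.42% and 4.82% of all probe sets). The latter split rested on Minoxidil 1, without which 4 were lower and 5 higher, whereas without Minoxidil 2 it was 15 and 0, and the median was -0.33 without Maslinic acid 1. Besides Cox6c, which alone passed the adjusted p, Atp5k, a subunit of ATP synthase, lay at 6.79 to 8.07 against 8.87 and 8.42 (-1.21 ± 0.33). The complex I subunits Ndufc2 (-1.05 ± 0.31) and Ndufs1 (7.75 to 8.01 against 9.34 and 8.36) were also wholly below.

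**Figure D3:**
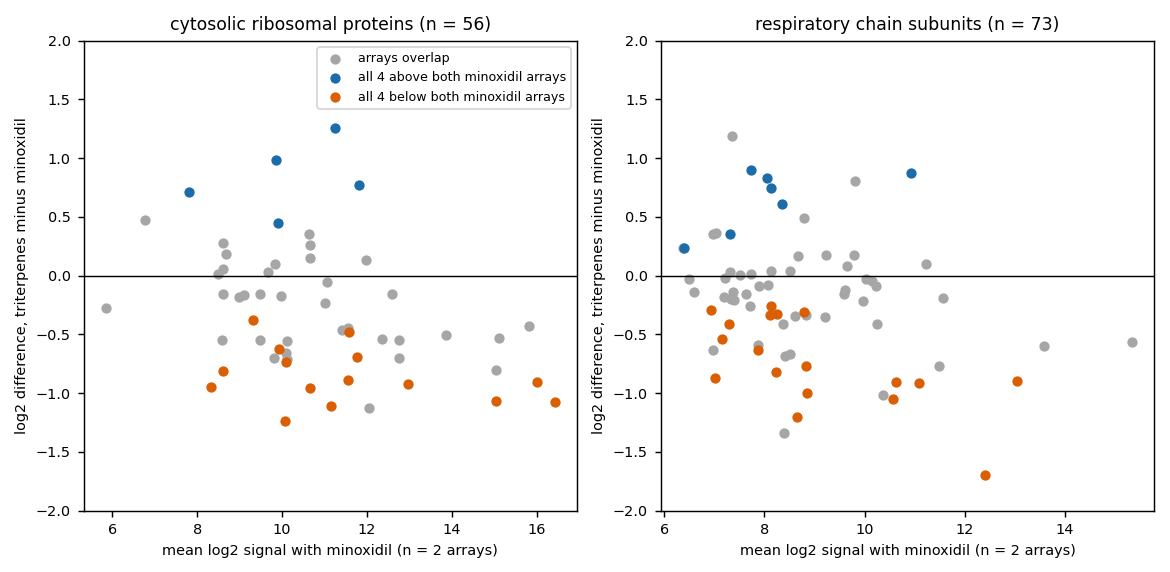
Log2 difference between the mean of 4 triterpene and the mean of 2 minoxidil arrays (vertical) against the mean log2 signal with minoxidil (horizontal) for ribosomal protein genes (left) and respiratory chain genes (right). Orange points, 15 and 18 genes, have all 4 triterpene arrays below both minoxidil arrays, blue points, 5 and 7 genes, have all 4 above, and grey points overlap.

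Among skeletal muscle genes, 1 triterpene array stood apart from the other 3. The mean level of 32 sarcomere genes was 8.84 and 8.87 on the tieghemelin arrays, 10.59 and 9.01 on the maslinic acid arrays, and 10.21 and 9.68 on the minoxidil arrays. Maslinic acid 1 was above both minoxidil arrays, while the other 3 triterpene arrays were below both, and the water arrays were higher still at 10.94 and 12.20. With all arrays the median difference was -0.43, and 2 genes lay wholly above and 1 wholly below (6.25% and 3.12%, against 12.6% and 15.3% of all probe sets). At the study's thresholds 5 were lower and 0 higher with all arrays (15.6% and 0.0%, against 5.42% and 4.82% of all probe sets). The median was -0.18 without Minoxidil 1. Without Maslinic acid 1 it was -0.73, and 14 of 32 lay wholly below minoxidil (19.2% of all probe sets did so then), 15 met the study's thresholds on the lower side (5.97% of all) and 2 passed the adjusted p (0.045% of all). Of the 32 genes, Maslinic acid 1 was the highest triterpene array for 24. The gene that lay wholly below with all arrays was Myoz1, a Z-disc protein, at 8.88 to 9.61 against 10.32 and 10.16 (-0.99 ± 0.27, adjusted p = 0.0988). Acta1, skeletal actin, read 9.69 and 8.97 with tieghemelin, 12.21 and 10.45 with maslinic acid and 12.09 and 11.58 with minoxidil, so that Maslinic acid 1 was above both minoxidil arrays and the other 3 were below.

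For genes of muscle calcium handling and energy supply, the number without overlap also depended on that array. Of 28 measured, 2 lay wholly below and 1 wholly above (7.14% and 3.57%, against 15.3% and 12.6% of all probe sets). At the study's thresholds 6 were lower and 1 higher with all arrays (21.4% and 3.57%, against 5.42% and 4.82% of all probe sets). Without Maslinic acid 1 the number wholly below was 13 (46.4%, against 19.2% of all probe sets). Pygm, muscle glycogen phosphorylase, read 9.18 to 11.20 against 11.65 and 11.21 (-1.19 ± 0.44), and Pfkm, muscle phosphofructokinase, 8.55 to 8.83 against 9.70 and 9.28 (-0.75 ± 0.24). Cox7a1, a cytochrome oxidase subunit of heart and muscle, went the other way (0.90 ± 0.27). The labels do not say how much of the muscle layer under the skin was taken with each sample, and its part in the other results, including Sorbs2 and the respiratory chain, was not tested.

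**Figure D4:**
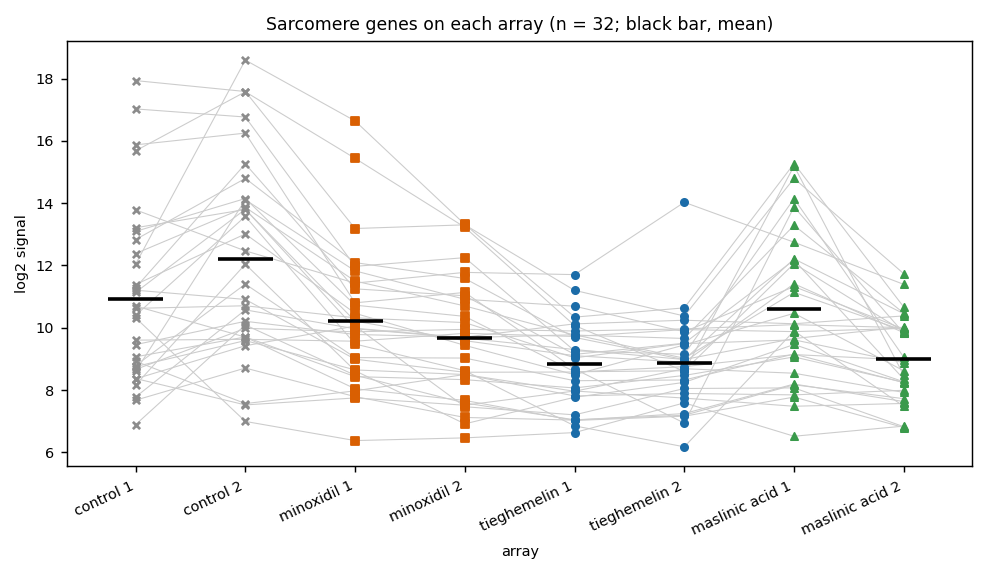
Log2 signal of 32 sarcomere genes on each of the 8 arrays. Points are genes, grey lines join the same gene, and black bars are means: 10.59 on Maslinic acid 1 against 8.84 to 9.01 on the other triterpene arrays and 10.21 and 9.68 with minoxidil.

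In the epidermis, adhesion genes of the basal layer went both ways. Lama3, a chain of the laminin that anchors basal keratinocytes, read 7.55 and 7.80 with tieghemelin, 8.45 and 7.69 with maslinic acid and 9.99 and 9.07 with minoxidil. The triterpene arrays were all lower (-1.66 ± 0.33, 3.15-fold, adjusted p = 0.0521). By contrast the integrin genes Itgb1 (9.87 to 10.83 against 9.02 and 9.28, 1.17 ± 0.32) and Itgb4 (7.76 to 8.61 against 7.21 and 7.73, 0.88 ± 0.30) lay wholly above. Of 17 basal genes, 4 were wholly above and 3 wholly below (23.5% and 17.6%, against 12.6% and 15.3% of all probe sets). The keratins that define this layer overlapped, as Krt5 read 9.27 to 11.40 against 11.84 and 9.98.

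Differentiation genes of the upper epidermis had 6 of 54 wholly above and 10 wholly below, with a median of -0.15. These were 11.1% and 18.5%, against 12.6% and 15.3% of all probe sets. Lce1b, a late cornified envelope protein, lay at 10.56 to 10.97 against 12.01 and 11.64 (-1.03 ± 0.24, adjusted p = 0.0732). Tgm1, the transglutaminase that cross-links the envelope, lay at 8.98 to 9.68 against 8.37 and 8.47 (0.93 ± 0.26, adjusted p = 0.102). Serpinb3a, a keratinocyte protease inhibitor that rises in inflamed skin, read 9.52 and 9.71 with tieghemelin, 8.90 and 9.73 with maslinic acid and 8.07 and 7.63 with minoxidil. It was the member of the alarmin and wound list to pass the adjusted test, with 1.61 ± 0.29 or 3.06-fold (adjusted p = 0.0475) and no overlap. S100a8, an alarmin of neutrophils and stressed keratinocytes, was at 6.59 and 6.45 with minoxidil, 7.41 and 7.75 with maslinic acid and 7.33 and 10.13 with tieghemelin, so that Tieghemelin 2 stood alone (adjusted p = 0.197). Sprr2d, a small proline-rich envelope protein, was on the lower side (-0.81 ± 0.24). The alarmin and wound list had 3 of 37 wholly above and 5 wholly below (8.11% and 13.5%, against 12.6% and 15.3% of all probe sets).

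Genes of proliferation, stress and the clock included some of the larger single differences. Tyms, thymidylate synthase, read 10.48 and 10.46 with tieghemelin, 10.81 and 10.92 with maslinic acid and 9.39 and 9.11 with minoxidil. It rose by 1.42 ± 0.25, which is 2.67-fold (adjusted p = 0.0438), and the water arrays were spread widely at 7.98 and 10.26. Top2a, the topoisomerase of dividing cells, was below background with minoxidil and at least 1.62-fold higher (adjusted p = 0.0732), and the replication helicase gene Mcm4 differed by 0.65 ± 0.27, whereas the mitotic kinase gene Bub1 was on the lower side (-0.73 ± 0.35). The 36 measured cell cycle genes as a list had 4 wholly above and 5 wholly below, and a median of -0.08. These were 11.1% and 13.9%, against 12.6% and 15.3% of all probe sets.

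Immediate early and stress genes had 9 of 38 wholly above (23.7%, against 12.6%) and 3 wholly below, although the list's median was only 0.10 (0.04 without Maslinic acid 1, 0.16 without Tieghemelin 1) and 1 met the study's thresholds. That gene, Gadd45a, a growth arrest gene induced by DNA damage, read 9.48 and 9.99 with tieghemelin, 9.62 and 9.20 with maslinic acid and 7.70 and 8.53 with minoxidil. All triterpene arrays lay above (1.46 ± 0.30, adjusted p = 0.0551). Fosb (0.71 ± 0.25), a subunit of AP-1, and Trib3 (0.66 ± 0.25), a pseudokinase of the stress response, were on the same side and the kinase gene Sgk1 (-0.67 ± 0.26) on the other. Clock genes had 4 of 24 on each side (16.7%, against 12.6% of all probe sets above and 15.3% below). Cry1, a repressor of the clock, lay at 8.75 to 9.24 against 8.00 and 8.29 (0.84 ± 0.24, adjusted p = 0.110), its activator Npas2 was at least 1.48-fold higher, and Nfil3, a repressor of clock output, differed by -0.76 ± 0.30. The time of day of sampling was not given in the sources used here.

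Lipid and detoxification genes gave isolated differences. The sterol synthesis enzyme gene Msmo1 was at least 1.73-fold higher (adjusted p = 0.0515) and Mvd, an earlier enzyme of the pathway, lay at 8.33 to 9.12 against 9.78 and 9.59 (-0.98 ± 0.28). Dhcr7 (0.73 ± 0.30) and Lss (0.65 ± 0.27) of the same pathway were wholly above. In all 4 of 19 were above and 2 below (21.1% and 10.5%, against 12.6% and 15.3% of all probe sets). In fat genes, Thrsp, a lipogenic regulator above background on 1 minoxidil array and 0 triterpene arrays, was at least 1.58-fold lower, and Dgat2 (-0.87 ± 0.28) and Elovl6 (-0.72 ± 0.23) were lower too, while malic enzyme gene Me1 was higher (0.93 ± 0.27). The adipocyte list as a whole had 3 of 31 on each side (9.68%, against 12.6% of all probe sets above and 15.3% below). Ephx1, an epoxide hydrolase, was at least 1.92-fold higher, and Gstp1, a glutathione transferase, differed by -1.15 ± 0.37 with adjusted p = 0.142. The detoxification list had 4 of 38 wholly above and 3 wholly below (10.5% and 7.89%, against 12.6% and 15.3% of all probe sets).

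Pigment and matrix genes gave values that changed with the setting. Of 22 melanocyte genes 5 lay wholly below (22.7%, against 15.3% of all probe sets) and 1 above (4.55%, against 12.6%). Their median was -0.11, and it was -0.21 without Minoxidil 1 and -0.05 without Minoxidil 2. Mitf, the master regulator of melanocytes, read 7.60 to 8.08 against 8.55 and 8.62 (-0.84 ± 0.24, adjusted p = 0.110), and the melanosome genes Tyrp1 (-0.72 ± 0.28), Slc24a5 (-0.70 ± 0.30) and Oca2 (-0.54 ± 0.25) lay on the same side. Of 38 collagen and matrix genes 10 lay wholly below (26.3%, against 15.3% of all probe sets) and 6 above (15.8%, against 12.6%), with a median of -0.03. Among brighter probe sets, which hold 18 of these genes, 2 lay below (11.1%, against 16.3% of brighter probe sets) and 4 above (22.2%, against 14.3%). The proteoglycan decorin (Dcn) was wholly above, with its highest value on Maslinic acid 1 (9.11 and 8.92 with tieghemelin, 10.16 and 8.83 with maslinic acid, 8.37 and 8.29 with minoxidil).

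Markers of immune, vascular and nerve cells were checked because whole skin holds them all. The macrophage mannose receptor gene Mrc1 read 11.76 and 11.54 with tieghemelin, 10.92 and 11.55 with maslinic acid and 9.79 and 10.40 with minoxidil. It was wholly above (1.35 ± 0.29, 2.54-fold, adjusted p = 0.0634). The macrophage list of 22, however, had 2 above and 3 below (9.09% and 13.6%, against 12.6% and 15.3% of all probe sets). The complement gene C1qc was lower (-0.62 ± 0.27). Cxcr6, a chemokine receptor of resident T cells, rose with an adjusted p of 0.0377, yet with minoxidil it was below background, so the bound was only 1.05-fold. T cell genes had 3 of 20 wholly above, a share near the 12.6% of all probe sets, and 0 below. Dendritic cell genes went both ways, with 4 of 15 above and 3 below (26.7% and 20.0%, against 12.6% and 15.3% of all probe sets). H2-Aa, a class II antigen-presenting chain, was lower (-0.88 ± 0.26). Mast cell markers likewise split, with the IgE receptor chain Fcer1a lower (-0.90 ± 0.25) and the protease Cpa3 higher (0.81 ± 0.33). In that list 2 of 15 were above and 1 below (13.3% and 6.67%, against 12.6% and 15.3% of all probe sets). Endothelial genes had 3 of 21 above and 1 below (14.3% and 4.76%, against 12.6% and 15.3% of all probe sets). Flt4, the lymphatic growth factor receptor, was wholly above (0.75 ± 0.25). Smooth muscle myosin Myh11 (-0.77 ± 0.25) was lower and Mcam, an adhesion molecule of pericytes, higher (0.92 ± 0.30). Their list had 2 of 18 above and 3 below (11.1% and 16.7%, against 12.6% and 15.3% of all probe sets). The interferon list had 4 of 33 above and 3 below (12.1% and 9.09%, against 12.6% and 15.3% of all probe sets), with Usp18 higher (0.97 ± 0.30) and Gbp2 lower (-0.90 ± 0.32). Of the genes in this paragraph Cxcr6 alone passed the adjusted p.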

How the data were processed

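Per the series' design text, Clariom S Mouse scans were normalized with Transcriptome Analysis Console 4.0.1, and RMA and Affymetrix Expression Console are named in the submitters' processing notes. The range of the deposited values, with a maximum of 19.89 or 19.93 on each array, was that of a log2 scale. RMA subtracts background, equalizes the distributions of arrays and summarises probes, which removes most differences in total signal. A genome build was not given in the sources used here. The 6640 control probe sets among 28846 did not enter the fits, and all 22206 remaining probe sets did, unfiltered and as scaled by the authors. Gene names came from the platform annotation, and genes with several probe sets used the brightest in list counts.

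The 4 triterpene arrays were compared with the 2 minoxidil arrays in limma 3.58.1 (R 4.3.3) by a linear model with moderated errors, which left 4 residual degrees of freedom, with p-values adjusted by Benjamini-Hochberg over every probe set. A model with 3 groups gave each compound alone. SE is the model's. The code was tested on simulated data. Named were the 15 probe sets per direction with the largest difference among those with 1 symbol, an adjusted p under 0.05, no overlap and a group above background on every array, predicted genes skipped, then filled from the study's thresholds, and up to 4 members per list with the largest difference among members without overlap. Krt5, Krt71, Acta1 and the other marker genes of the tissue check, and list members beyond these 4, were chosen otherwise. The 38 lists held 1063 genes, 957 of them measured, and the members and lists were chosen with earlier results of these data known. The alternatives were a 3-group model, a replicate block, filters on dim probe sets, 3 rescalings, other variance settings, array weights and leaving out each array. Upstream sequences came from RefSeq tables, and all 3 genes matched.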

Additional observations from a re-analysis of the deposited data

Results flagged for a closer look

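Within the 4 triterpene arrays, the highest or lowest array stood apart from the other 3 by a larger share of the range than Dixon's 95% limit for 4 samples allows, for 6 of 123 genes named with a value, and chance flags about 1 in 20 groups. For S100a8, Tieghemelin 2 read 10.13 against 7.33 to 7.75 on the others. For Krt28, Tieghemelin 2 read 8.18 against 8.30 to 8.32. For Mitf, Tieghemelin 1 read 8.08 against 7.60 to 7.68. For Oca2, Maslinic acid 2 read 8.38 against 7.83 to 7.90. For Olfr133, Tieghemelin 1 read 10.24 against 9.75 to 9.81, and for Trib3 it read 8.43 against 7.94 to 7.99.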

How the results depend on the processing

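Against 78 calls, there were 4 in the 3-group model, 141 among brighter probe sets, 251 among probe sets above background in a group, 50 with quantile normalization, 2230 with background centring, 222 with trend and robust moderation, 1 without moderation and 0 with array weights. Leaving out 1 array gave 0 to 119. At the study's thresholds, against 2274, brighter probe sets gave 1309, background centring 4544 and no moderation 1483, and leaving out 1 array gave 2224 to 3968. Without overlap, against 6192, brighter probe sets gave 3399, and leaving out 1 array gave 7258 to 13210, since fewer arrays overlap less. The replicate block gave 52 calls, 48 of them shared. Same-numbered arrays did not vary together (correlations of -0.05, 0.07 and -0.17), which cannot tell whether they were handled in pairs. Some genes whose arrays overlapped between the groups changed sign. Leaving out 1 array, Abcc9 ranged from -0.084 to 0.13, Kcnj8 from -0.50 to 0.24, Krt5 from -1.69 to 0.18, Krt71 from -0.51 to 0.61 and Ptgs2 from -0.12 to 0.090. With array weights Krt71 was -0.031, and with background centring Kcnj8 was 0.28, Ptgs2 0.40 and Sult1a1 0.047. The cause of these changes was not tested. Signal near background limits the dim genes, given as bounds.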

Other observations

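Receptors for odorants, pheromones and trace amines, gathered as a group after their values were seen, leaned lower relative to all probe sets after triterpene treatment. Of 1425 measured, 290 lay wholly below minoxidil (20.4%, against 15.3% of all probe sets) and 114 wholly above (8.00%, against 12.6%), with a median difference of -0.17 against -0.03. The mean level of the group was 8.82 and 8.76 with tieghemelin, 8.63 and 8.80 with maslinic acid, and 8.89 and 8.94 with minoxidil. Their known site is the nose, and their signal in skin was not checked by another method.

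Other calls are named here after their values were seen. Gm10324, a predicted gene skipped by the naming rule, had one of the smallest adjusted p-values (0.0173, limma) and read 11.64 and 11.46 with tieghemelin, 11.35 and 11.29 with maslinic acid, and 9.32 and 9.41 with minoxidil. Gm3317 and Gm3488 gave identical values on every array, and the 78 calls held 76 distinct profiles. Tada2a, a subunit of histone acetyltransferase complexes, was higher by 1.42 ± 0.24 (SE), Itih5, a hyaluronan-binding matrix protein, by 1.58 ± 0.24 and Tulp3, a ciliary trafficking protein, by 1.58 ± 0.29. Perm1, a regulator of muscle energy metabolism, was at least 1.90-fold higher, with 8.46 and 8.40 for tieghemelin, 8.31 and 8.22 for maslinic acid and 7.06 and 6.90 for minoxidil.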
